A study of Mus musculus with 8 samples.

Results

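The 33 genes described here encode lysosomal hydrolases, their helper proteins and proteins of the lysosomal membrane. They were picked by gene symbol from the 54854 genes of the deposited count table, with the cathepsins left out. All 33 were found, all 33 passed the filter on low counts that left 17723 genes for testing, and the lowest count of any of them in any library was 186. By role they comprised 8 membrane proteins, 8 hydrolases that cleave sugars from glycoproteins, glycolipids or glycogen, and 7 hydrolases of glycosaminoglycans. The others were 7 enzymes and carriers of lipids, and a last set of 3 made up of Tpp1, Ppt1 and Grn. RNA came from the whole pituitary of each of 8 C57BL/6N mice, taken at 5 weeks. In the anti-CD115 group, 4 mice had been exposed to the antibody AFS98 against CD115, the product of Csf1r and a growth factor receptor on which many tissue macrophages depend. In the control group, 4 mice had been exposed to a rat IgG2a isotype antibody, clone 2A3. Dosing was the same in both groups: it began in the womb, through 3 mg injected into the dam at embryonic day 6.5, and was renewed after birth with 100 µg (postnatal day 2), then 150 µg (postnatal day 14) and last 200 µg (4 weeks). Replicate 1 was female in both groups and replicates 2, 3 and 4 were male. The labels call the animals biological replicates but are silent on dams and litters, so litter and treatment cannot be told apart.

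Lysosomes are acidic organelles in which hydrolases break down glycans, lipids and proteins that arrive by endocytosis, phagocytosis and autophagy. Most of the hydrolases are tagged with mannose phosphate in the Golgi and carried to the organelle by sorting receptors, while heavily glycosylated proteins such as Lamp1 and Lamp2 line its membrane. Every nucleated cell holds lysosomes, macrophages are known for an ample supply of them, and in endocrine cells of the pituitary lysosomes also dispose of surplus secretory granules. Inherited loss of many of these genes causes lysosomal storage disease. Many lysosomal genes share a short palindrome in their promoters, the CLEAR element, which is bound by the transcription factor TFEB and its relatives.

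That shared element could be read directly in the RefSeq promoter windows of build GRCm38.p6, which run from 250 bases before to 50 bases after a gene's annotated start. Windows were matched by symbol for 30 of the 33 genes, the others being Asah1, Galns and Npc1. The core of the element, CACGTG, reads the same on both strands and stood in a window of 9 of the 30 genes (30%), against 8.09% of all 27025 genes with a window. These were Arsa, Cln3, Gaa, Gla, Glb1, Lamp1, Mcoln1, Naglu and Sgsh. The whole palindrome, in which GT comes before the core and AC after it, stood in 1 window of Cln3 among the 30 and in 0.370% of all genes. Cln3 had 2 windows, and the other held neither the core nor the palindrome. The motif GAGGAAGT, searched on both strands as a form of the site of PU.1, the myeloid transcription factor encoded by Spi1, stood in the windows of Gla and Gusb (6.67%), against 3.69% of all genes. The windows of Lyz2, Cd68 and Laptm5, lysosomal genes outside the 33 that are described below, held neither GAGGAAGT nor CACGTG. A match is a run of letters and not a known binding site, and no match says only that these letters are not in the window. The windows of Lamp1 (chr8:13158911-13159210, plus strand), Mcoln1 (chr8:3500269-3500568, plus strand) and Cln3 (chr7:126583187-126583486, minus strand) are printed 5′ to 3′ because Lamp1 holds the core most often among the 30 genes and Mcoln1 and Cln3 are membrane proteins that hold it 2 times, with the whole palindrome around 1 of the cores of Cln3; the core is in capitals. The window of Man2b1 (chr8:85083019-85083318, plus strand), the gene that lost the largest share of its transcript among the 33, is printed beside them and holds neither motif.
Lamp1: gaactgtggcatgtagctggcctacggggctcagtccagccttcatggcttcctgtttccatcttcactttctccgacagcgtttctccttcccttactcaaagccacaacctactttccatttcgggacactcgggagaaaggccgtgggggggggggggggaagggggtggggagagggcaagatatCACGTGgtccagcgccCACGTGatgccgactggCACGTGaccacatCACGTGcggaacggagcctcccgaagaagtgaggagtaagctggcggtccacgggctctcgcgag
Mcoln1: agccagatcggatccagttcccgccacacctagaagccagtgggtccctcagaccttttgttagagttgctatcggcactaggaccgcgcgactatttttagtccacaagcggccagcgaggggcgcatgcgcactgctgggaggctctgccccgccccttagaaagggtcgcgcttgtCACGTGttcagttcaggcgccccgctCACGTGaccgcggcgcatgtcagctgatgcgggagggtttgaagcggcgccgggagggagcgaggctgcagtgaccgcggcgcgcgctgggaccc
Cln3: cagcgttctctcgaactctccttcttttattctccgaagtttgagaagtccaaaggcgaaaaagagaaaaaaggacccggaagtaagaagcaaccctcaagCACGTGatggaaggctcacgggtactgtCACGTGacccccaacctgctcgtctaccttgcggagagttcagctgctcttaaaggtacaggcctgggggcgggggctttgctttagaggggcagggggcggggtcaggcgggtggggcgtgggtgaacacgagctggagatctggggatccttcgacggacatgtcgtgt
Man2b1: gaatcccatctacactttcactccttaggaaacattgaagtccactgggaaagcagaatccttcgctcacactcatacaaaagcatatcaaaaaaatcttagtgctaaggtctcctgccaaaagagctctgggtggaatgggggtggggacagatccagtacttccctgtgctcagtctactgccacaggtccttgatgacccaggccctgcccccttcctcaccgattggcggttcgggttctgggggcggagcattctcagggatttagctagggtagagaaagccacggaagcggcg
In Lamp1, which encodes an abundant lysosomal membrane glycoprotein, the first of 4 cores began 61 bases before the start (position -61). In Mcoln1, the gene of a lysosomal cation channel, cores began at positions -71 and -45, and in Cln3 at -149 and -121. The 9 genes with the core had a median log2 change with anti-CD115 of -0.06 and ranged from -0.11 to 0.11. The 21 genes without it had a median of -0.05 and ranged from -0.24 to 0.13. No test was made between the sets.

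The depletion itself was read from Csf1r and a list of macrophage markers in the same libraries. Csf1r stood at 27.2, 40.2, 37.2 and 26.9 counts per 1000000 (CPM, scaled by TMM factors) in control replicates 1 to 4 and at 6.80, 1.43, 5.75 and 2.73 CPM in anti-CD115 replicates 1 to 4. Every treated library was below every control, and the fitted loss was 87.6% (95% interval 78.1% to 92.9%; edgeR adjusted p = 0.00294). Of 18 macrophage markers, 16 fell and 2, Cd163 and Itgam, did not pass, against 0.829% of all genes tested that fell. Without anti-CD115 replicate 4, 13 of the 18 passed. The summed level of the 18 markers ran from 226 to 312 CPM in controls and from 17.2 to 58.3 CPM with anti-CD115, and none of the 18 was at 0 in any library. Hormone genes served as the check of the tissue, with growth hormone alone at 13.5% to 23.0% of all counts. Markers of neutrophils and monocytes summed to 1.72 to 8.67 CPM in controls and 2.77 to 4.92 CPM with anti-CD115. That sum mixes both directions, as the 3 tested markers had log2 changes from -1.11 to 0.76. Ccr2 was at 0.504, 2.13, 2.75 and 1.85 CPM in controls and at 0.631 to 1.05 CPM with anti-CD115. S100a8 was at 0.210 to 1.36 CPM in controls and at 0.876 to 1.28 CPM with anti-CD115. S100a9 alone was at 4.03 CPM in control replicate 3. Lymphocyte markers summed to 5.58 to 14.1 and 5.25 to 8.28 CPM, and 0 of the 3 tested markers of either list passed. The libraries held 23289819 to 36218096 counts.

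A single treated gland stood apart over the lysosomal genes. Anti-CD115 replicate 3 had the highest level of the treated group for 24 of the 33, and the median gene in it stood at 104% of the control mean, against 91.6%, 93.6% and 97.3% in anti-CD115 replicates 1, 2 and 4. In the control group, replicate 3 was the highest for 16 of the 33, with its median gene at 103% of the control mean. Both libraries also had the highest growth hormone share of their group, at 23.0% and 20.6%. Their total counts, 34724813 and 36218096, were the highest of their groups as well. Anti-CD115 replicate 3 had a TMM factor of 0.941, against 1.02 to 1.05 in the other treated libraries. Control replicate 3 had 0.973, against 0.951 to 1.02 in the other controls. The summed level of the macrophage markers was 52.9, 17.2, 58.3 and 31.9 CPM in anti-CD115 replicates 1 to 4, the highest again in replicate 3. The part of depth, scaling, growth hormone share or macrophage markers in the levels of the lysosomal genes was not tested. For several counts and medians, the values without that library, or without another, are given beside those of all 8.

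None of the 33 lysosomal genes rose or fell (edgeR quasi-likelihood test, adjusted p below 0.05 over all genes), against 0.869% of all genes tested. The smallest adjusted p among them was 0.309. DESeq2 called 0 of the 33 as well, against 1.51% of all genes. In edgeR without anti-CD115 replicate 3 the count was again 0. Over the edgeR fits with 1 library left out, 89 to 120 of all genes passed. At an unadjusted p below 0.05 there were 5, Man2b1, Hexa, Grn, Gusb and Npc2, all with lower values, against 5.77% of all genes with lower and 4.57% with higher values at that level. That count changed when 1 library was left out. It was 1 without anti-CD115 replicate 2, and 2 without anti-CD115 replicate 1 or 4 or control replicate 1 or 3. It was 3 without control replicate 4, 5 without anti-CD115 replicate 3 and 6 without control replicate 2. Each such fit had 1 library fewer, and the matching share of all genes is not given. Over these fits the log2 change of Man2b1 ran from -0.28 to -0.21 and that of Hexa from -0.29 to -0.17. Grn ran from -0.27 to -0.17, Gusb from -0.23 to -0.15 and Npc2 from -0.22 to -0.11. The fitted share lost, the percentage by which CPM was lower with anti-CD115 than with the isotype antibody, ran from 15.2% for Man2b1 to -9.45% for Ids, whose value was above that of controls. Values were below those of controls for 24 genes and above for 9, where 49.1% of all genes tested were below. The median log2 change was -0.06 for the 33 genes and 0.00 for all genes tested. The median of the 33 was -0.09 without anti-CD115 replicate 3, with 25 below 0, and -0.031, -0.037 and -0.034 without anti-CD115 replicate 2, anti-CD115 replicate 4 and control replicate 3, with 21, 22 and 22 below 0. The upper end of the 95% interval for the share lost was 25.6% or less for each of the 33, the highest being that of Hexa. In whole glands, fewer cells of a type and less RNA per cell cannot be told apart, and the share of a transcript that macrophages carried was not measured.

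**Figure D1:**
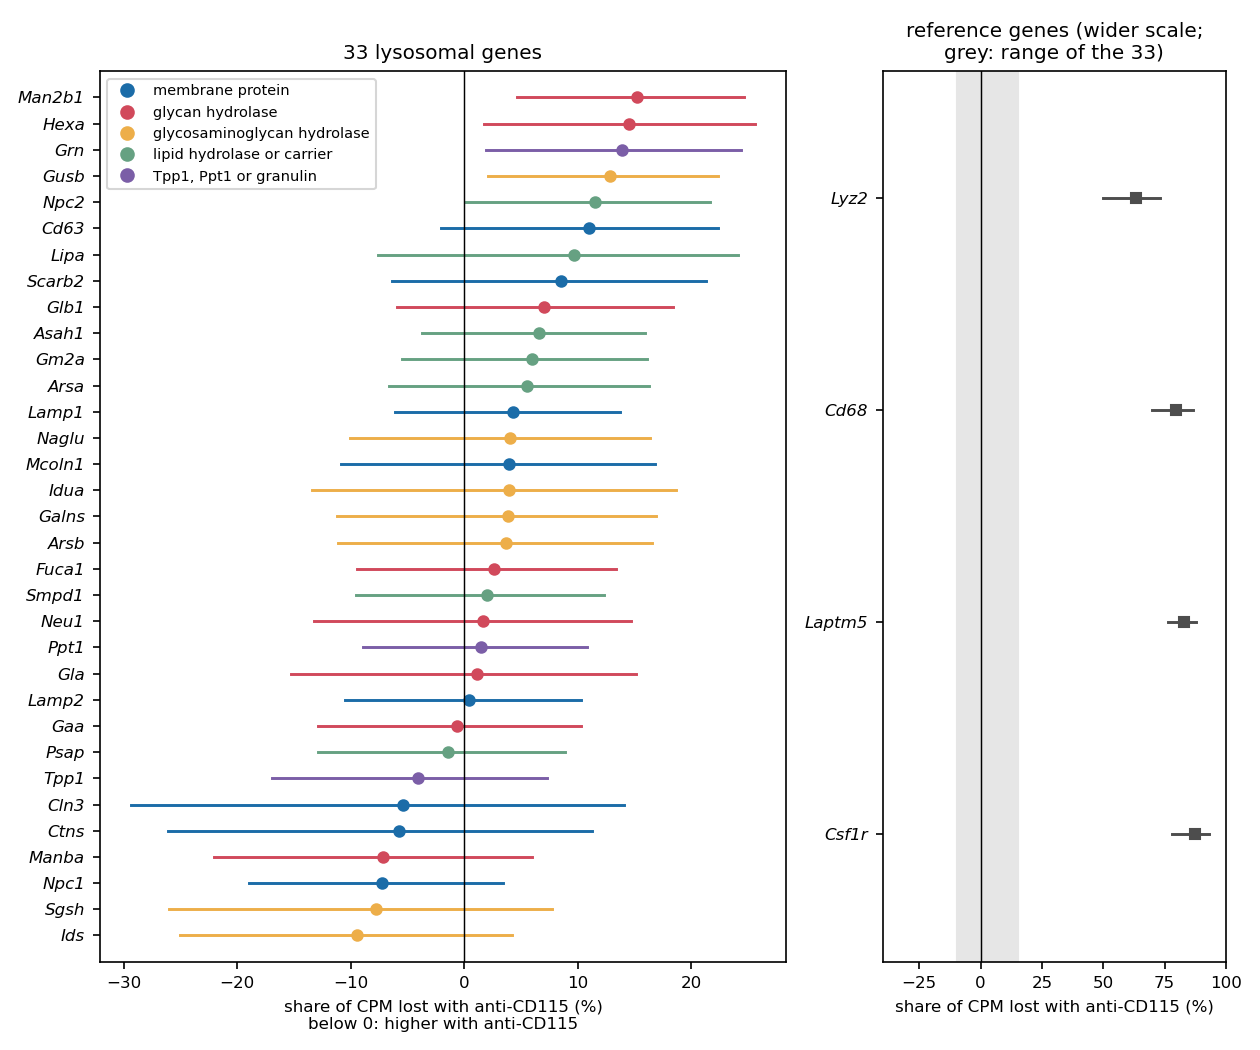
Share of each transcript lost with anti-CD115 in percent (points) with 95% intervals from the edgeR fit (lines), for the 33 lysosomal genes ranked by share lost and coloured by role (left) and for 4 reference genes on a wider scale (right, with the range of the 33 in grey). The 33 genes lie between -9.45% and 15.2%, while Lyz2 lies at 63.2% and Csf1r at 87.6%.

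Among the glycan hydrolases, 6 of 8 had values below controls (median log2 change -0.03), and 7 of 8 without anti-CD115 replicate 3 (median -0.072). The count was 4 of 8 without control replicate 3 (median -0.0064) and 4 of 8 without anti-CD115 replicate 2 (median -0.014). Man2b1, Hexa and Glb1 had the largest shares lost and Gaa, Neu1 and Gla stayed close to 0. Man2b1, the lysosomal alpha-mannosidase that trims N-linked glycans (ENSMUSG00000005142, GRCm38 chromosome 8, 85083270 to 85098282), stood at 52.7, 56.8, 56.1 and 49.4 CPM in control replicates 1 to 4 and at 45.4, 44.2, 48.3 and 44.2 CPM in anti-CD115 replicates 1 to 4. The groups did not overlap, although the highest treated library lay just under the lowest control. The share lost was 15.2% (interval 4.67% to 24.6%; log2 change -0.24, SE 0.08, edgeR adjusted p = 0.309). Groups of this kind, with every treated library below every control, were found for 3 of the 33 genes, Man2b1, Gusb and Npc2, and for 3.29% of all genes tested. Without anti-CD115 replicate 3 they were found for 8 of the 33 and for 6.53% of all genes tested. That library was the highest of the treated group for 24 of the 33, which bears on this count. With any other library left out, the count was 3 or 4 of the 33. With all 8 libraries, the opposite order was found for 0 of the 33, against 2.47% of all genes tested.

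Hexa encodes the alpha subunit of beta-hexosaminidase, which degrades gangliosides (ENSMUSG00000025232, chromosome 9, 59539540 to 59565109). It stood at 157, 141, 175 and 160 CPM in control replicates 1 to 4 and at 131, 126, 154 and 132 CPM in anti-CD115 replicates 1 to 4. Control replicate 2 lay below anti-CD115 replicate 3, so the groups overlapped. The share lost was 14.5% (interval 1.71% to 25.6%; log2 change -0.23, SE 0.09, edgeR adjusted p = 0.434). Glb1, the lysosomal beta-galactosidase, was at 48.7, 46.0, 54.3 and 48.9 CPM in controls and at 41.7, 44.0, 51.3 and 47.2 CPM with anti-CD115. Its groups overlapped, with a share lost of 7.03% (interval -5.91% to 18.4%).

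Gaa, the acid alpha-glucosidase that breaks down glycogen, had almost the same mean in both groups. It stood at 576, 544, 567 and 523 CPM in controls and at 537, 531, 613 and 544 CPM with anti-CD115. Anti-CD115 replicate 3 was the highest of all 8 libraries, and the change was 0.01 on the log2 scale (SE 0.07; interval of the share lost -12.9% to 10.3%). Gla, the alpha-galactosidase that acts on globosides, was at 14.1, 15.0, 15.4 and 17.0 CPM in controls and at 15.1, 14.1, 16.3 and 15.2 CPM with anti-CD115. The ranges of its groups overlapped almost entirely (share lost 1.11%, interval -15.3% to 15.1%). Fuca1, the alpha-fucosidase, and Neu1, the sialidase, had shares lost of 2.65% and 1.69%, and Manba, the beta-mannosidase, had -7.13%. Man2b1 and Manba both act on mannose linkages, and their values lay on opposite sides of 0.

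Of the 7 glycosaminoglycan hydrolases, 5 had values below controls (median log2 change -0.06). The median was -0.018 without control replicate 1 and -0.097 without anti-CD115 replicate 3. Gusb had the largest share lost and Ids and Sgsh had values above controls. Gusb, the beta-glucuronidase that removes glucuronic acid from several glycosaminoglycans (ENSMUSG00000025534, chromosome 5, 129989011 to 130003049), stood at 40.1, 37.3, 42.8 and 38.5 CPM in controls and at 35.0, 33.4, 35.0 and 35.0 CPM with anti-CD115. All treated libraries were below all controls and close to each other. The share lost was 12.8% (interval 2.09% to 22.4%; log2 change -0.20, SE 0.08, edgeR adjusted p = 0.402). Naglu, Idua, Galns and Arsb, which cleave heparan, dermatan, keratan or chondroitin sulfate, had shares lost between 3.71% and 4.06%. With 1 library left out the log2 change of Naglu ran from -0.14 to -0.018, that of Arsb from -0.14 to -0.015 and that of Galns from -0.076 to -0.031. Ids, the sulfatase that starts the breakdown of heparan and dermatan sulfate, had a log2 change of 0.13 (SE 0.09, edgeR adjusted p = 0.650), and its treated libraries, at 248 to 268 CPM, overlapped the controls at 199 to 255 CPM. Sgsh, a heparan sulfate sulfamidase, had a log2 change of 0.11 (SE 0.10), with anti-CD115 replicate 3 at 29.0 CPM and the other 7 libraries at 21.7 to 24.3 CPM.

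Among the lipid enzymes and carriers, 6 of 7 had values below controls (median log2 change -0.09). Npc2 and Lipa had the largest shares lost, and Psap, the most abundant of all 33, had a value near 0. Npc2 is a soluble carrier that hands cholesterol to the membrane protein Npc1 (ENSMUSG00000021242, chromosome 12, 84754562 to 84773152). Npc2 stood at 181, 190, 226 and 194 CPM in controls and at 174, 168, 178 and 179 CPM with anti-CD115. The groups did not overlap, and control replicate 3 was well above the other controls. The share lost was 11.6% (interval 0.196% to 21.6%; log2 change -0.18, SE 0.08, edgeR adjusted p = 0.479). Its partner Npc1 had a log2 change of 0.10 (SE 0.07, edgeR adjusted p = 0.653), with controls at 58.2 to 64.5 CPM and treated libraries at 64.2 to 66.7 CPM.

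Lipa, the acid lipase that frees cholesterol and fatty acids from esters, was at 8.98, 10.7, 11.8 and 10.1 CPM in controls and at 8.86, 8.89, 9.56 and 10.2 CPM with anti-CD115. Both the control and the anti-CD115 female lay at the low end of their group, and the share lost was 9.65% (interval -7.61% to 24.1%). Asah1, the acid ceramidase, was at 90.7, 97.0, 89.2 and 99.9 CPM in controls and at 81.5, 88.4, 90.6 and 91.6 CPM with anti-CD115. Its groups overlapped in the middle of the range, with a share lost of 6.60% (interval -3.73% to 15.9%).

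Psap encodes prosaposin, the precursor of the saposins that present sphingolipids to their hydrolases. It stood at 988, 1101, 1115 and 978 CPM in controls and at 1032, 1076, 1086 and 1046 CPM with anti-CD115, so all treated libraries lay inside the control range. The log2 change was 0.02 (SE 0.07) and the interval of the share lost ran from -12.9% to 8.92%. Gm2a, the activator that lifts a ganglioside out of the membrane for beta-hexosaminidase, Arsa, the sulfatase of sulfatides, and Smpd1, the acid sphingomyelinase, had shares lost of 5.95%, 5.52% and 1.98%.

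Of the 8 membrane proteins, 5 had values below controls (median log2 change -0.03). They gave shares lost from 10.99% for Cd63 to -7.22% for Npc1. Cd63, a tetraspanin of late endosomes and lysosomes (ENSMUSG00000025351, chromosome 10, 128900989 to 128912822), stood at 220, 184, 214 and 200 CPM in controls and at 172, 181, 205 and 169 CPM with anti-CD115. Anti-CD115 replicate 3 reached into the control range, and the interval of the share lost ran from -2.04% to 22.4%. Scarb2, which carries glucocerebrosidase to the lysosome, was at 314, 292, 228 and 282 CPM in controls and at 250, 235, 259 and 274 CPM with anti-CD115. Here control replicate 3 was the lowest of all 8 libraries, and the share lost was 8.54% (interval -6.33% to 21.3%).

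Lamp2, a membrane glycoprotein with a role in autophagy, was at 187, 206, 193 and 204 CPM in controls and at 188, 202, 187 and 209 CPM with anti-CD115. Its groups covered the same range, and the share lost was 0.438% (interval -10.5% to 10.3%). Its relative Lamp1 had a share lost of 4.29% (interval -6.13% to 13.7%). Mcoln1 gave 3.99%, while the cystine exporter Ctns and the membrane protein Cln3 had values above controls, with log2 changes of 0.08 each (SE 0.11 and 0.13). Ctns without anti-CD115 replicate 3 had a log2 change of -0.026.

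In the remaining set, Grn was lower and Tpp1 and Ppt1 lay near 0. Grn encodes progranulin, a secreted precursor that is cleaved to granulins in the lysosome (ENSMUSG00000034708, chromosome 11, 102430315 to 102437048). It stood at 88.3, 94.2, 103 and 88.2 CPM in controls and at 77.0, 74.2, 90.9 and 79.9 CPM with anti-CD115. Anti-CD115 replicate 3 lay above control replicates 1 and 4, so the groups overlapped. The share lost was 13.9% (interval 1.92% to 24.4%; log2 change -0.22, SE 0.08, edgeR adjusted p = 0.424). Ppt1, which removes palmitate from proteins, gave 1.46%, and the peptidase Tpp1 gave -4.10%.

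**Figure D2:**
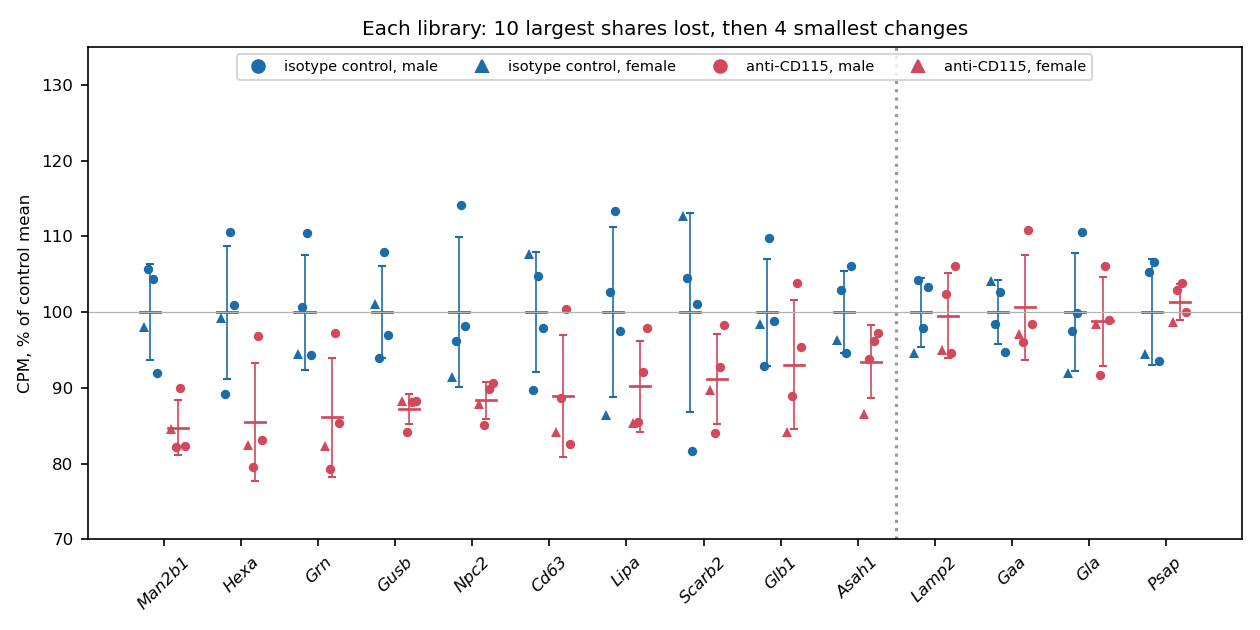
TMM-normalised CPM of each library as a percentage of the control mean of that gene, for the 10 genes with the largest shares lost and, right of the dotted line, the 4 with the smallest changes. Bars and whiskers are group means ± SD (n = 4), circles are males and triangles females; only Man2b1, Gusb and Npc2 have every anti-CD115 library below every control.

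The deposited FPKM values divide by the gene length of the deposited table, and levels were compared between the genes on that scale. That length was 1996 bases for Hexa, 3682 for Cd63 and 5438 for Npc2, with control means of 158, 204 and 198 CPM. Whether these lengths match the transcripts made in the gland was not tested, and ranks by FPKM and values per kilobase depend on them. In control glands the 33 genes spanned 1.37 FPKM for Cln3 to 378 FPKM for Psap, with a median of 15.6 FPKM. Psap at 378 ± 25.2, Lamp1 at 170 ± 5.26, Gaa at 115 ± 4.64 and Hexa at 78.7 ± 6.53 FPKM (SD, n = 4 each) were the highest by FPKM. Lipa at 3.47 ± 0.374 and Cln3 at 1.37 ± 0.117 FPKM (SD, n = 4 each) were the lowest. Of the 4 genes highest by FPKM, Hexa had a share lost over 10%, and Psap, Lamp1 and Gaa had values within 5% of the control level. Across the 33 genes the control level and the log2 change had a Spearman rho of -0.22 and a Pearson r of -0.20 on log2 FPKM, as a description of genes that share the same 8 libraries. Per kilobase, the 33 genes together summed to 1257 ± 37.4 CPM per kilobase in controls and 1221 ± 50.3 with anti-CD115 (SD, n = 4 each), a difference of -2.88%. Hexa made up -11.5 CPM per kilobase of that net difference, Lamp1 -7.32 and Cd63 -6.14, while Psap added 5.17.

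**Figure D3:**
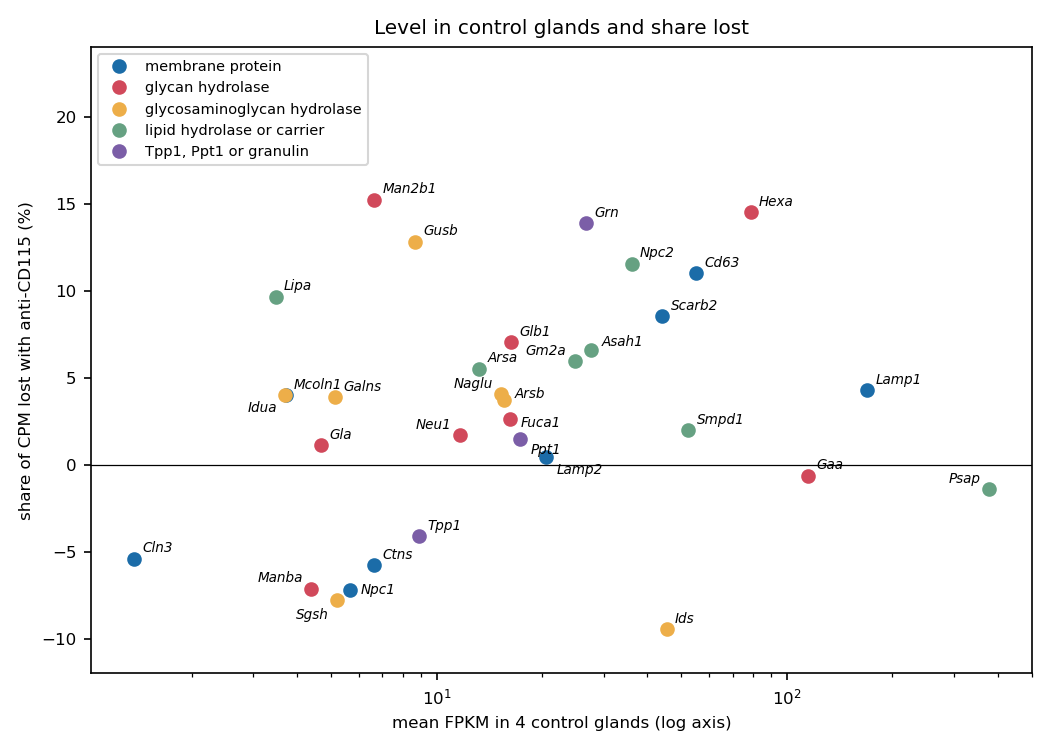
Mean FPKM of each of the 33 genes in the 4 control glands (log axis) against the share of its CPM lost with anti-CD115 in percent, coloured by role. Psap, the highest at 378 FPKM, lies near 0, and Hexa lies over 10%, unlike the other 3 of the 4 highest by FPKM.

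Beyond the 33, 4 further lists covered 92 lysosomal genes, of which 86 were tested, 3 fell, 0 rose and 83 passed in neither direction (median log2 change -0.02). Of all genes tested, 0.829% fell and 0.869% passed in either direction. The 3 that fell were a hydrolase, Lyz2, and the membrane proteins Cd68 and Laptm5. Lyz2, the lysozyme of myeloid cells, stood at 15.2, 18.0, 27.0 and 14.1 CPM in controls and at 6.20, 5.53, 7.83 and 7.69 CPM with anti-CD115. The groups lay well apart, and the share lost was 63.2% (interval 49.9% to 73.0%; log2 change -1.44, SE 0.20, edgeR adjusted p = 0.00669). Cd68, a Lamp-family glycoprotein used as a macrophage marker, was at 4.66, 5.63, 7.16 and 4.36 CPM in controls and at 1.296, 0.714, 1.44 and 0.925 CPM with anti-CD115. It lost 79.7% (interval 69.7% to 86.4%; edgeR adjusted p = 0.00217). Laptm5, a lysosomal membrane protein of leukocytes, was at 16.1, 22.3, 24.6 and 19.0 CPM in controls and at 3.19, 2.03, 4.49 and 4.03 CPM with anti-CD115, with no overlap between the groups. It lost 83.1% (interval 76.5% to 87.8%; edgeR adjusted p = 0.000516). In control glands these stood at 13.996 FPKM for Lyz2, 4.30 for Cd68 and 5.37 for Laptm5, levels that lie within the range of the 33 genes.

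The strand setting of the counting is not known, and where counting used no strand, reads of a gene on the other strand cannot be told apart. In GENCODE M21, 11 of the 33 genes share exonic bases with another gene, on the same strand for Glb1 and on the opposite strand for the rest. Exons of Tmem202 cover 12.8% of the exonic bases of Hexa, and the widest overlap is the 32.3% of Arsb. Man2b1, Gusb, Npc2 and Cd63 have no exon shared with another gene.

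Among the tested genes of these 4 further lists that did not pass, the lowest p-values belonged to Acp5, Mcoln3 and Rnaset2a. Acp5, the tartrate-resistant acid phosphatase of osteoclasts and macrophages, was at 0.839, 0.979, 2.40 and 1.501 CPM in controls and at 0.280, 0.856, 0.499 and 0.714 CPM with anti-CD115. The groups overlapped, and the log2 change was -1.31 (SE 0.34, edgeR adjusted p = 0.176); without the filter on low counts it passed, with an edgeR adjusted p of 0.0200. Mcoln3, a relative of Mcoln1, was at 6.21, 6.08, 5.65 and 6.15 CPM in controls and at 9.11, 8.46, 6.95 and 8.91 CPM with anti-CD115. The treated libraries were all above the controls (log2 change 0.47, SE 0.13, edgeR adjusted p = 0.223). Rnaset2a was at 2.14, 0.699, 0.622 and 0.873 CPM in controls and at 0.561, 0.607, 0.469 and 0.378 CPM with anti-CD115, and control replicate 1 stood far above the rest. Its log2 change was -0.96 (SE 0.33, edgeR adjusted p = 0.354), and its reads may be shared with its close copy Rnaset2b. Of 20 subunits and accessory proteins of the proton pump that acidifies the lysosome, 19 were tested and 0 passed, with a median log2 change of -0.06. Of 18 sorting receptors, retromer subunits and regulators, 17 were tested and 0 passed, with a median of 0.01. The share passing among all genes tested was 0.869%. The 17 sorting and regulator genes had log2 changes from -0.18 to 0.34. Tfeb, at the low end, had a log2 change of -0.18 (SE 0.10, edgeR adjusted p = 0.585). Its relative Mitf was at 6.67, 9.65, 7.02 and 9.95 CPM in controls and at 8.76, 10.1, 11.7 and 11.4 CPM with anti-CD115. Another relative, Tfe3, was at 67.8 to 78.1 CPM in controls and at 66.6 to 71.1 CPM with anti-CD115.

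With all 8 libraries, none of the tested markers of cell types other than macrophages passed, against 0.869% of all genes tested. Endothelial markers had values above controls for 6 of 6 genes (median log2 change 0.28), 0 passed, and for 3 of 6 every treated library was above every control, where the share of all genes tested is the 2.47% given above. Their summed level was 421, 429, 449 and 304 CPM in control replicates 1 to 4 and 454 to 508 CPM with anti-CD115. Control replicate 4 stood well below the other controls, and without it the median was 0.16, with values above controls for 6 of 6. The part of endothelial markers in the lysosomal values was not tested. Fibroblast and mural, stem and folliculostellate, and pituicyte markers and hormone genes had medians of 0.12, 0.16, 0.06 and 0.01, with 0 genes passing in each list. Without control replicate 4 the fibroblast and mural median was -0.051 and the pituicyte median -0.15. The pituicyte median was 0.30 without control replicate 2. Without anti-CD115 replicate 3, 1 of the 7 hormone genes passed.

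**Figure D4:**
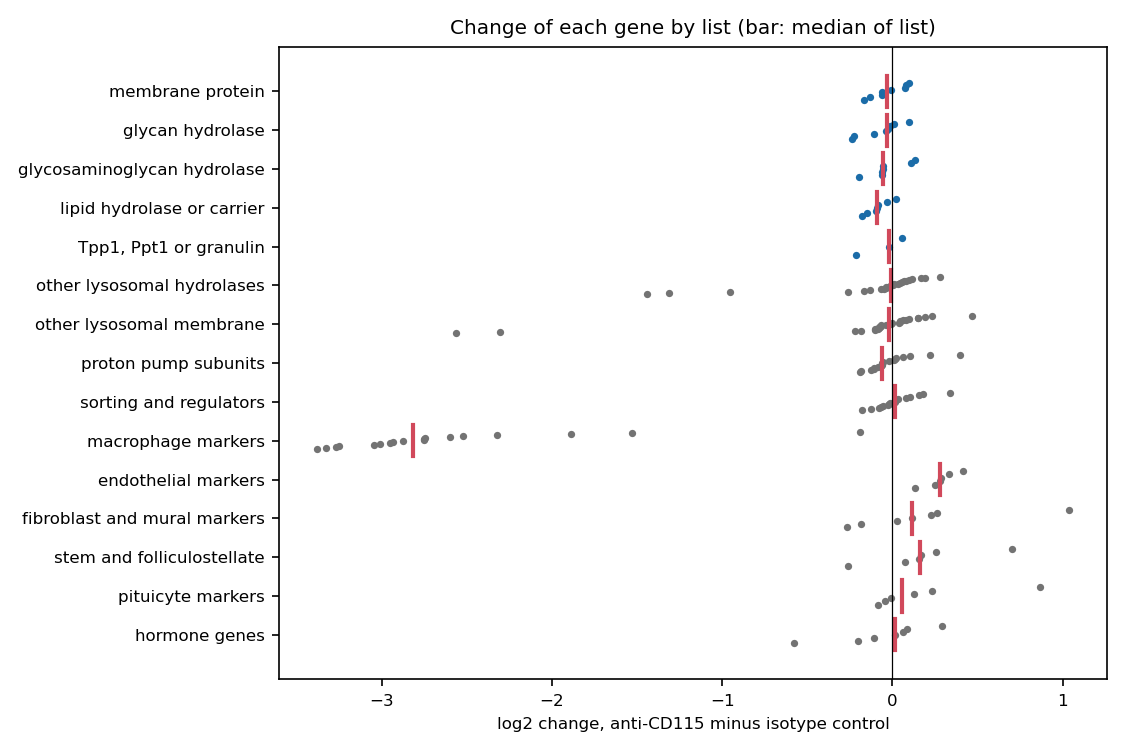
Log2 change with anti-CD115 against the isotype control for each tested gene (points) by list, with the median of each list (red bar); the 33 lysosomal genes are in blue in the upper 5 rows. The 33 genes lie between -0.24 and 0.13, and the median of the 18 macrophage markers is -2.81.

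Sex was the other contrast in the design, with 1 female in each group. None of the 33 genes differed between females and males (edgeR quasi-likelihood test with treatment as a term, adjusted p below 0.05), against 0.491% of all genes tested. At an unadjusted p below 0.05 there was 1 gene, Tpp1, and 9.09% of all genes, and DESeq2 called 0 of the 33. The lowest p-values belonged to Tpp1 (log2 female minus male -0.20, SE 0.09, edgeR adjusted p = 0.535), Gm2a (-0.19, SE 0.09, 0.569 by the same test) and Arsa (-0.19, SE 0.09, 0.603). Mean CPM of Tpp1 was 42.5 in the 2 females and 48.9 in the 6 males. The treatment change differed between the sexes for none of the 33 (edgeR sex by treatment term, adjusted p below 0.05, against 0.0395% of all genes tested; 0 at an unadjusted p below 0.05 against 3.20% of all genes; and 0 by DESeq2 after adjustment). For Cd63 the log2 change was -0.35 in the female pair and -0.10 in the males, for Scarb2 -0.33 and -0.06, and for Gm2a 0.04 and -0.13. The lone female of a group was given the spread seen among the males, and the intervals of these differences reached from -0.77 to 0.90 on the log2 scale over the 33 genes.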

How the data were processed

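Polyadenylated RNA of 8 mouse pituitaries was sequenced. By the submitters' processing notes, the tools of the authors were featureCounts 1.5.0-p3, StringTie 1.3.3b and HISAT2 2.0.5, on build GRCm38; settings and strand use are not given in the sources used here. The deposited table of raw counts is in whole numbers per gene. The deposited FPKM table divides these by gene length and by a library size between 94.6% and 106% of the library's total count. A count of 3 was worth 0.0828 to 0.129 CPM. Counting error only is covered by such floors.

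Counts were fitted in R 4.3.3 with edgeR 4.0.16: filterByExpr on treatment, TMM factors (0.941 to 1.05), and the quasi-likelihood test on the 8 libraries together, sex and treatment being the terms. Benjamini-Hochberg adjustment covered all 17723 genes tested, with a threshold of 0.05. Standard errors came from the F statistic, and 95% intervals from the t distribution. The procedure was tested on simulated data. No library was left out, and replicates differed by a chi-square per degree of freedom of 15.9 or more. Mitochondrial transcripts took 2.43% to 2.95% of counts.

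The 33 genes and all other lists were chosen with earlier results of these data known. One item is not reported here. Values in every library are given for the 10 largest shares lost and the 4 smallest changes among the 33, and, among the genes of the further lysosomal lists, for those past the threshold and the 3 lowest p-values beyond it. Additional genes are named within their role. Promoter windows came from RefSeq on GRCm38.p6 and exon overlaps from GENCODE M21. Alternatives used DESeq2 1.42.0, limma 3.58.1, other filters and scalings, log2(FPKM + 1), log2(FPKM + 0.1), no sex term, males only, a replicate block, and each library left out.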

Additional observations from a re-analysis of the deposited data

Results flagged for a closer look

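For 6 of the 76 groups of 4 libraries examined, in 38 genes, the highest or lowest library stood apart from the other 3 by Dixon's criterion; chance does so for about 1 in 20 groups. Of the 6, 4 were the highest value in anti-CD115 replicate 3. These were Gaa at 613 CPM against 531 to 544 in the other treated libraries, Naglu at 45.6 against 36.6 to 37.4, Neu1 at 49.6 against 40.7 to 41.3, and Ctns at 29.1 against 21.6 to 22.7. Lamp1 stood at 482 CPM in isotype control replicate 3, against 445 to 451 in the other controls. Gusb stood at 33.4 CPM in anti-CD115 replicate 2, below the other treated libraries, which lay at 35.0 in each case.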

How the results depend on the processing

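None of the 33 genes passed under any of the 18 alternatives for the treatment or the 11 each for sex and for sex by treatment. Lyz2, Cd68 and Laptm5 passed under all 18; without the low-count filter Acp5 passed as well, making 4. Over all genes the count of 154 became 487 when no low-count filter was set and 268 under DESeq2, and 89 to 120 with 1 library left out, the lowest without anti-CD115 replicate 4 and 101 without anti-CD115 replicate 2. Same-numbered replicates correlated at -0.10 to 0.42 across genes, with 2 of 4 pairs over 0.1. The 0.42 was that of replicate 1, female in both groups, where number and sex cannot be told apart. With sex and treatment taken out, the pairs of replicates 2, 3 and 4 correlated at -0.10, -0.09 and 0.14. The numbers were not taken to pair the samples. With a replicate block 118 genes passed, 0 of the 33 among them. The values of 9 genes near 0 changed sign when a library was left out, with log2 ranges of -0.12 to 0.014 for Idua, -0.090 to 0.028 for Neu1, -0.052 to 0.031 for Gla, -0.030 to 0.027 for Lamp2, -0.043 to 0.048 for Gaa, -0.026 to 0.14 for Ctns, -0.075 to 0.0093 for Smpd1, -0.072 to 0.011 for Fuca1 and -0.018 to 0.047 for Psap; the cause was not tested. Over all 18 alternatives the log2 change of Man2b1 ranged from -0.28 to -0.20 and that of Hexa from -0.29 to -0.17. The counts of lists and of groups that do not overlap were recomputed without each library after seeing the data. The SE of the log2 change ran from 0.065 for Ppt1 to 0.13 for Cln3, the gene with the lowest count, and the part of depth in it was not tested.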
